A study of Homo sapiens with 24 samples.

Results

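Naive and central memory T cells are held in a resting, recirculating state by a small set of transcription factors and homing receptors. The genes described here are 9 of that set: TCF7, LEF1, BACH2, KLF2, KLF3, FOXO1, S1PR1, CCR7 and ID3, taken by symbol from the 2 comparison tables that the authors deposited. All 9 are listed in the TPA table of 58780 genes and 6 in the DMSO table of 13025 genes; KLF2, KLF3 and ID3 are absent from the DMSO table. RNA sequencing covered 24 libraries of MyLa, a mycosis fungoides line, and HuT 78, a Sézary syndrome line, both cutaneous T cell lymphomas. Each line carried a non-targeting control hairpin (NTC) or a hairpin against PRKCQ (shPRKCQ) and received DMSO, the vehicle, or 10 ng/ml TPA for 24 h, with 3 libraries in each of 8 groups. TPA, a phorbol ester, mimics diacylglycerol and so switches on protein kinase C. Whether the kinase was still active at 24 h is not shown by transcript values. Per the labels' protocols, the hairpin against PRKCQ was induced with doxycycline at 1 µg/ml, begun 72 h or more before treatment. Whether NTC cells received the drug is not stated; if not, effects of drug and hairpin cannot be told apart. Each table sets the 6 NTC libraries of a treatment against its 6 shPRKCQ libraries over both lines, so the lines are not separated in any value below.

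As background, PRKCQ encodes protein kinase C theta, which carries T cell receptor signals towards NF-kappaB, NFAT and AP-1. In quiescent T cells FOXO1 sits in the nucleus and drives KLF2, S1PR1, CCR7 and other homing genes; receptor signalling through PI3K and AKT excludes it from the nucleus, and T cells then lose naive genes as they become effectors. TCF7 and LEF1 are related HMG-box factors that bind beta-catenin and Groucho corepressors, BACH2 represses effector genes at AP-1 sites, and ID3 binds E proteins and keeps them off DNA.

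No member passed the test in either treatment. Per the authors' deposited tables, none (0) of 6 members tested in DMSO and 0 of 9 in TPA had an adjusted p under 0.05, against 0.108% of all 13007 genes tested in DMSO and 0.113% of 19417 in TPA. At an unadjusted p under 0.05 the members again counted 0 and 0, where 3.04% and 3.99% of all genes tested lie. Every member had an adjusted p of 1.00 after rounding. DESeq2 is in the submitters' processing notes; which tool gave these p-values is not stated there. Negative values mean lower in shPRKCQ cells, a direction taken from PRKCQ itself, which fell to 23.1% of the NTC level in DMSO and 23.7% in TPA per the authors' deposited tables (adjusted p = 5.61e-14 and 1.67e-15). In bulk RNA of this kind fewer cells expressing a gene and less of its RNA per cell cannot be told apart.

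**Figure D1:**
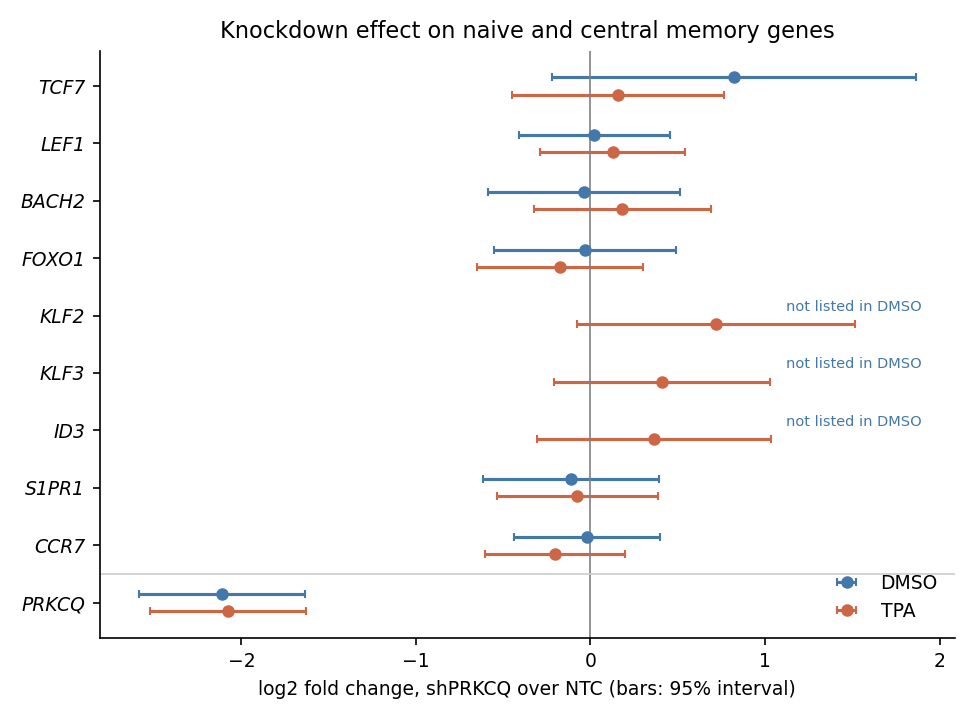
Log2 fold change of shPRKCQ over NTC (x axis) for the 9 members and PRKCQ (y axis), with points for the authors' values and bars for 95% intervals computed from their p-values, in DMSO (blue) and TPA (orange). Every member interval spans 0, while both PRKCQ intervals lie below -1.6.

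Taken as a list, the members were centred near 0 in DMSO and slightly above it in TPA. In DMSO 4 of 6 were negative and 2 positive, and their median on the log2 scale was -0.025, beside a median of 0.0075 and 47.7% negative over all genes tested. In TPA 3 of 9 were negative and 6 positive, with a median of 0.16, beside 0.011 and 47.0% negative over all genes. Over the 6 members that both tables hold, the TPA median was 0.026, so the higher TPA median came with KLF2, KLF3 and ID3, which have no DMSO value. T cell markers were also on the positive side in TPA, 12 of 13 with a median of 0.19, against 3 of 7 and -0.056 in DMSO. Of B cell, myeloid and epithelial or stromal markers, 9 of 11 were positive in TPA, median 0.16, and 3 of 3 in DMSO, median 0.31. The part of either marker set in the members' values was not tested.

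The 3 promoter windows printed here belong to members picked after the values were seen, none of which passed the test. TCF7 had the highest estimate in DMSO, KLF2 the highest in TPA, and S1PR1 is a textbook target of KLF2. The sequences are RefSeq windows on GRCh38.p14, from 250 bases before to 50 after a transcript start, written 5′ to 3′ on the gene's strand, the plus strand for each. Capitals mark matches on either strand to GTAAACA (FOXO), CCACCC (KLF), CTTTGA (TCF and LEF), CAGGTG (an E-box, bound by E proteins) or TGANTCA (AP-1 and BACH), motifs chosen after the values were seen.
TCF7, chr5:134115363-134115662: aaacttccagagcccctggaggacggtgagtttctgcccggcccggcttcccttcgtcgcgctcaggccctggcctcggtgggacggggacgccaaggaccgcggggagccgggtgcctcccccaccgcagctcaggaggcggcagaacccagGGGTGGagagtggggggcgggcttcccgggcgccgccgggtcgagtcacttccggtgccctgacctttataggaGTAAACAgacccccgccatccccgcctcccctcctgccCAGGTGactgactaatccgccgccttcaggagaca
KLF2, chr19:16324576-16324875: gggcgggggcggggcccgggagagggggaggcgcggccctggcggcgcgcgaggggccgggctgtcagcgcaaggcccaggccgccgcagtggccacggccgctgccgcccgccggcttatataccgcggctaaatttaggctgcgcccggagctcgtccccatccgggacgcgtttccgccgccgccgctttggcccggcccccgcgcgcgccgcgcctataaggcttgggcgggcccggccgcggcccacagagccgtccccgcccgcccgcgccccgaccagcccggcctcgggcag
S1PR1, chr1:101236769-101237068: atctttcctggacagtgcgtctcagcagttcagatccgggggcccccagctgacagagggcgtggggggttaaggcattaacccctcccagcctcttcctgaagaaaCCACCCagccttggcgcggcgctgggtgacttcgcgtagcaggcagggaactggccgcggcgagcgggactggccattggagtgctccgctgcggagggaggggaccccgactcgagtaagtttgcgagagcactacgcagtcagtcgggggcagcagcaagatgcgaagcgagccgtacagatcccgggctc
The TCF7 window holds the FOXO letters GTAAACA 23 bases before the start, a KLF match on the opposite strand and an E-box, with no overlap between them. The S1PR1 window holds 1 KLF match, 143 bases before the start, and the KLF2 window holds none of the 5 motifs. Over the 8 windows found for 7 members, a pair of them for TCF7, GTAAACA was in 1, CCACCC in 4, CTTTGA in 1, CAGGTG in 2 and TGANTCA in 0. The same letters are in 3.42%, 34.3%, 12.9%, 20.6% and 7.71% of all 35116 promoter windows of this length. KLF3 and CCR7 had no window. These matches describe letters in short windows and say nothing of binding.

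TCF7 (ENSG00000081059.19; chromosome 5, 134114711 to 134151865, plus strand, GRCh38, as are all positions here), which encodes TCF-1, a factor needed for self-renewing memory T cells, had the highest member estimate in DMSO. The authors' deposited table gave a log2 fold change of 0.82 in DMSO, with a 95% interval from -0.22 to 1.86 (unadjusted p = 0.122). The interval, here and below, comes from an implied standard error, the fold change divided by the z-value that its p-value stands for; for TCF7 in DMSO it was 0.53. The estimate corresponds to 177% of the NTC level, with bounds of 85.8% and 364%, so levels above and below NTC lie inside. Its standard error was larger than that of 98.1% of all genes tested in DMSO. In TPA the authors' deposited table gave 0.16, standard error 0.31, interval -0.45 to 0.76 (unadjusted p = 0.612). The last part of TCF7 overlaps SKP1 on the opposite strand; SKP1, a ubiquitin ligase subunit, was at 0.085 and 0.081 per the authors' deposited tables.

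LEF1 (ENSG00000138795.9; chromosome 4, 108047545 to 108168956, minus strand), the paralog of TCF7, was close to 0 in both treatments. The authors' deposited tables gave 0.021 in DMSO and 0.13 in TPA, with standard errors of 0.22 and 0.21 and intervals from -0.41 to 0.45 and from -0.29 to 0.54. Its level was thus 101% of NTC in DMSO, with bounds of 75.2% and 137%, and 109% in TPA, with bounds of 81.9% and 146%. A halving or doubling of LEF1 lies outside both intervals, while for TCF7 a doubling in DMSO lies inside. This holds only if the fold changes were not shrunken apart from their p-values, which is not given.

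FOXO1 (ENSG00000150907.7; chromosome 13, 40469953 to 40666597, minus strand), the forkhead factor upstream of the homing genes, was at -0.030 in DMSO and -0.17 in TPA per the authors' deposited tables. The intervals ran from -0.55 to 0.49 and from -0.65 to 0.30 (unadjusted p = 0.909 and 0.475). FOXO1 is controlled largely by its location in the cell, which transcript values do not show. The long noncoding gene LINC00598 overlaps FOXO1 on the same strand over 65855 bases of gene span. Reads could be assigned to either only where their exons overlap, which was not examined.

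KLF2 (ENSG00000127528.5; chromosome 19, 16324817 to 16327874, plus strand), the quiescence factor that FOXO1 induces and that activates S1PR1, had the smallest p of the members, in the table where it is listed. In TPA the authors' deposited table gave 0.72, with a standard error of 0.41 and an interval from -0.080 to 1.51 (unadjusted p = 0.0777). This is 164% of the NTC level, with bounds of 94.6% and 286%. It ranked 1142 by p among the 19417 genes tested, and 5.88% of them had a smaller p. The standard error of KLF2 was larger than that of 87.8% of those genes. KLF3 (ENSG00000109787.12; chromosome 4, 38664196 to 38701042, plus strand), a repressor of the same family that recruits CtBP, had 0.41 in TPA per the authors' deposited table, standard error 0.32, interval -0.21 to 1.03 (unadjusted p = 0.197). The estimates of both KLF members were positive in TPA, and neither passed.

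BACH2 (ENSG00000112182.14; chromosome 6, 89926529 to 90296908, minus strand) was at -0.036 in DMSO and 0.18 in TPA per the authors' deposited tables, with intervals from -0.58 to 0.51 and from -0.33 to 0.69. It was the member whose sign differed between treatments, with both estimates well within their standard errors of 0.28 and 0.26. ID3 (ENSG00000117318.8; chromosome 1, 23557918 to 23559794, minus strand) had 0.36 in TPA per the authors' deposited table, standard error 0.34, interval -0.31 to 1.03 (unadjusted p = 0.290). Its level was 129% of NTC, with bounds of 80.8% and 204%.

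The receptors that keep naive and central memory cells circulating had values near or below 0. S1PR1 (ENSG00000170989.9; chromosome 1, 101236865 to 101243713, plus strand), the sphingosine 1-phosphate receptor used to leave lymph nodes, was at -0.11 in DMSO and -0.076 in TPA per the authors' deposited tables, with intervals from -0.61 to 0.39 and from -0.54 to 0.38. CCR7 (ENSG00000126353.3; chromosome 17, 40553769 to 40565472, minus strand), the receptor for CCL19 and CCL21 used to enter them, was at -0.020 and -0.20, with intervals from -0.44 to 0.40 and from -0.60 to 0.20, per the authors' deposited tables. CCR7 in TPA corresponds to 86.8% of the NTC level, with bounds of 65.8% and 115% (unadjusted p = 0.320). Its standard error of 0.20 in TPA was the smallest of any member there. Both receptors were negative in both treatments, with every estimate within its standard error. KLF2 and its textbook target S1PR1 thus had estimates of opposite sign in TPA, neither past the test.

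**Figure D2:**
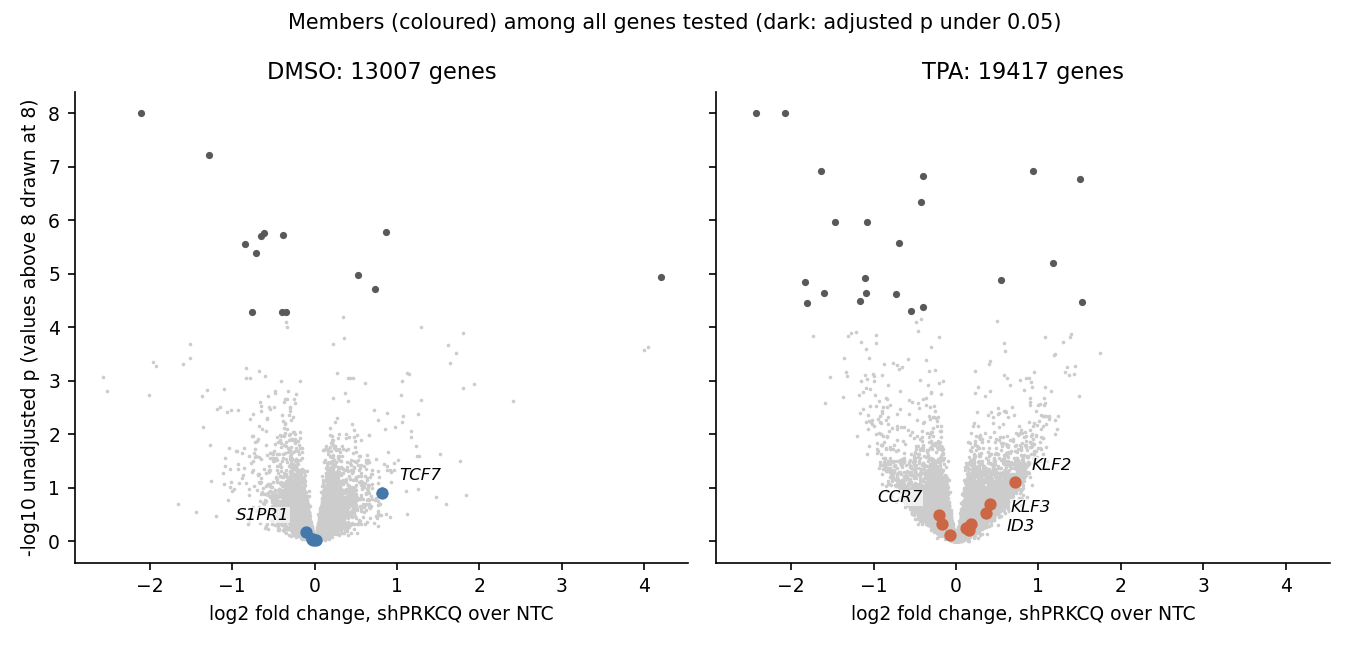
Log2 fold change (x axis) against -log10 of the authors' unadjusted p (y axis, values above 8 drawn at 8) for all genes tested in DMSO (left, 13007 genes) and TPA (right, 19417 genes), with members coloured and genes at an adjusted p under 0.05 dark. All members lie below the dark genes. TCF7 in DMSO and KLF2 in TPA are the highest members, with 6.89% and 5.88% of all genes tested at a smaller p.

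The precision of these values sets what they can show. The 95% interval stayed within 1 log2 unit of 0, that is within a halving and a doubling, for 5 of 6 members in DMSO and 6 of 9 in TPA, beside 93.0% and 81.9% of all genes tested. The exceptions were TCF7 in DMSO and KLF2, KLF3 and ID3 in TPA. Intervals would be too narrow if the deposited fold changes were shrunken apart from their p-values, which is not given in the sources used here. Most members had a standard error above the median of all genes tested: all 6 above the DMSO median of 0.17, and 7 of 9 above the TPA median of 0.22. Each arm holds both lines and the model formula is not given. A difference between lines may therefore enter these standard errors, which was not tested. The 3 members missing from DMSO had TPA standard errors of 0.32 to 0.41. Of TPA genes with a standard error from 0.3 to 0.4, 26.8% are listed in the DMSO table, and of those at 0.4 or more 6.28%, against 98.4% of those under 0.1. TCF7 is in the first of these ranges and is listed. The rule by which genes were left out of the DMSO table is not given in the sources used here.

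The knockdown effect on the members did not pass as different between TPA and DMSO. The difference of fold changes, TPA minus DMSO, was set against the implied standard errors of both tables, which share no library. Among the 6 members that could be compared 0 passed, also at an unadjusted p under 0.05. Over all 13007 genes 0 passed (0%) and 57, or 0.438%, had an unadjusted p under 0.05. Without any difference, evenly spread p-values would put a share of 0.05 there, so this test was conservative. Its 0 calls therefore do not show that the effects were alike. TCF7 had the widest difference, -0.66, with an interval from -1.87 to 0.54 (unadjusted p = 0.280). BACH2 differed by 0.22 (interval -0.53 to 0.96), CCR7 by -0.18 (-0.76 to 0.40) and FOXO1 by -0.14 (-0.85 to 0.56). LEF1 and S1PR1 differed by 0.11 and 0.034, with intervals from -0.49 to 0.71 and from -0.65 to 0.72. Signs matched in 5 of 6 members, beside 64.3% of all genes.

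**Figure D3:**
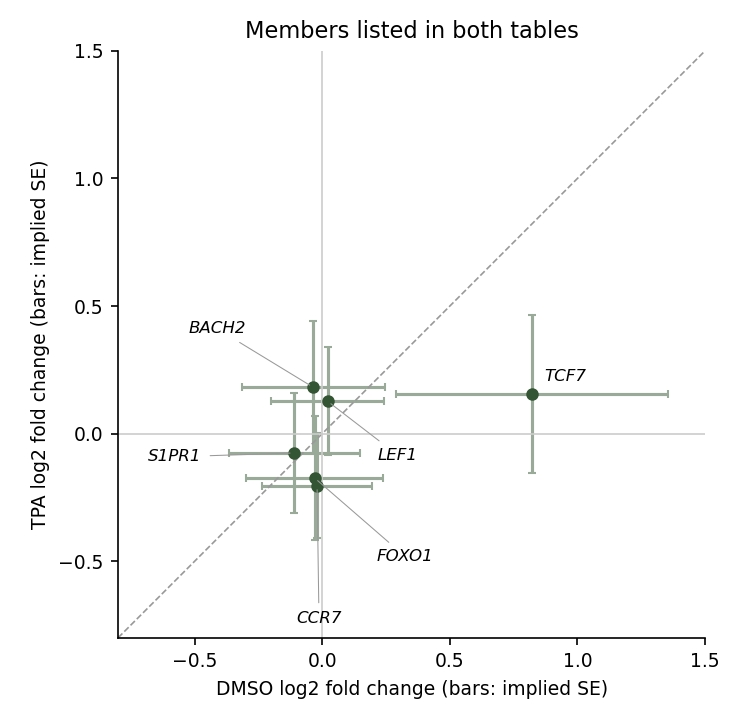
Log2 fold change in DMSO (x axis) against TPA (y axis) for the 6 members that both tables list; bars are implied standard errors and the dashed line marks equal values. TCF7, at 0.82 and 0.16, lies apart to the right, and the other members lie within 0.21 of 0 on both axes.

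Whether the scales of the tables are the same is not known, which touches the TCF7 comparison most. Of the genes listed in TPA, 2910 share exactly a log2 fold change of 0.00054, while no DMSO value is shared by more than 2 genes. That count covers all 34085 TPA genes with a fold change, of which 19417 were tested. In DMSO nearly all listed genes, 13007 of 13025, were tested, so the contrast does not show a difference in scale. The standard error of TCF7 in TPA was 0.58 times that in DMSO, whereas for the other 5 members the ratio was 0.91 to 0.96 and over all genes its median was 0.97. In units of its standard error TCF7 was at 1.55 in DMSO and 0.51 in TPA.

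Beyond the members, 9 lists of 157 genes were read: other naive or memory genes, partners and relatives of the members, and the effector genes usually set against them. Of these 0 of 120 tested in DMSO and 0 of 143 in TPA passed. At an unadjusted p under 0.05, 3 were higher and 2 lower in DMSO, or 4.17%, and 6 were higher and 6 lower in TPA, or 8.39%, beside 3.04% and 3.99% of all genes. The lists were drawn up with earlier results of these data known, so these shares are no independent evidence. Pairs of values below are log2 fold changes, DMSO before TPA.

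Among 30 further genes typical of naive or memory T cells, 10 of 21 tested in DMSO and 16 of 28 in TPA were positive, with medians of -0.014 and 0.031. SATB1, a chromatin organiser of T cells, was at -1.11 in DMSO and -0.47 in TPA per the authors' deposited tables (adjusted p = 0.365 and 1.00 after rounding). APBA2 was at 0.54 and 0.45 per the authors' deposited tables (unadjusted p of 0.0255 and 0.0488), with a larger adjusted p than SATB1 in DMSO.

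Genes around FOXO1 had medians of 0.075 for the 19 tested with DMSO and 0.0051 for the 20 tested with TPA. Of these, 3 were negative with DMSO and 9 with TPA, beside 47.7% and 47.0% of all genes tested. FOXO3, a relative of FOXO1 with many shared targets, was at 0.31 and 0.16 per the authors' deposited tables; AKT2, a kinase that phosphorylates FOXO factors, was at 0.094 and 0.11, and SMAD3 at 0.12 and 0.23. Partners of TCF7 and LEF1 and Wnt targets had medians of -0.013 and 0.0096. BCL9, which bridges beta-catenin to Pygopus, was at -0.31 and -0.25 per the authors' deposited tables (unadjusted p = 0.0125 and 0.0378). Its homologue BCL9L was at -0.077 and 0.39, the scaffold AXIN1 at 0.17 and 0.24, and the corepressor TLE2 at -0.34 and -0.35, per the authors' deposited tables.

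The other KLF factors and KLF3 corepressors had medians of 0.060 (10 genes, DMSO) and 0.12 (15 genes, TPA). KLF8, listed in TPA alone, was at 0.71, close to KLF2 in size, per the authors' deposited table (unadjusted p = 0.101). KLF10 was at 0.32 and 0.21, KLF11 at -0.077 and -0.27, and KLF16 at 0.11 and -0.089 per the authors' deposited tables. BACH2 partners and competitors had medians of -0.043 and -0.013. The AP-1 subunit JUN was at 0.66 and 0.62 per the authors' deposited tables, each with an unadjusted p of 0.0105, and BATF3 at -0.29 and -0.052. HMOX1, a heme oxygenase gene repressed by BACH1, was at -0.83 in TPA per the authors' deposited table (unadjusted p = 0.00218, adjusted p = 0.382).

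Of ID and E proteins, 5 genes were tested in each treatment, with medians of 0.018 and -0.035. In the authors' deposited tables ID1 was at 0.35 and 0.023, ID2, which is linked to effector fate, at -0.17 and 0.19, and the E proteins TCF3 at 0.18 and -0.071 and TCF4 at -0.16 and -0.30. The sphingosine 1-phosphate list had a median of -0.021 in both treatments. S1PR2 was at -0.23 and -0.021, GNAI2, a G protein subunit through which S1PR1 and CCR7 signal, at -0.14 and -0.17, and S1PR5, listed in TPA alone, at -0.89 per the authors' deposited tables. Other homing genes had medians of 0.039 and 0.069, with CCR8 at -0.36 and 0.52, ITGAE at 0.039 and 0.33 and ITGB7 at 0.30 and 0.15 per the authors' deposited tables.

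Genes of the effector programme, which in T cells is usually set against the members, had medians of -0.066 (16 genes, DMSO) and 0.062 (19 genes, TPA). EOMES, a T-box factor of effector and memory cells, was at -0.36 and -0.76 per the authors' deposited tables. Its unadjusted p was 0.122 in DMSO and 0.000455 in TPA (adjusted p = 1.00 after rounding and 0.173). IFNG, the cytokine interferon gamma, was at -1.59 in TPA per the authors' deposited table (unadjusted p = 0.00259, adjusted p = 0.430), and the receptor KLRG1 at 0.44 and 0.13. Among T cell markers, CD3G was at 0.22 and 0.21 and CD8A at -0.19 and 0.036, and CD5 and CD7, listed in TPA alone, at 0.56 and 0.69, per the authors' deposited tables. The tables hold no expression levels, so they cannot check the T cell label, and listing shows only which genes were tested. All 13 markers were tested in TPA. In DMSO, CD3D, CD3G, CD247, TRAC, TRBC1, TRBC2 and CD8A were tested, while CD3E, CD2, CD5, CD7, CD4 and LCK were not. Of 16 B cell, myeloid and epithelial or stromal markers, 3 were tested in DMSO, with a median of 0.31, and 11 in TPA, with a median of 0.16. In the authors' deposited tables CD79A was at 0.36 and 0.16 and COL1A1 at 0.31 and -0.46, while CD79B and COL1A2 were at -1.10 and 0.80 in TPA; none of these passed, and their part in the members' values was not tested.

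**Figure D4:**
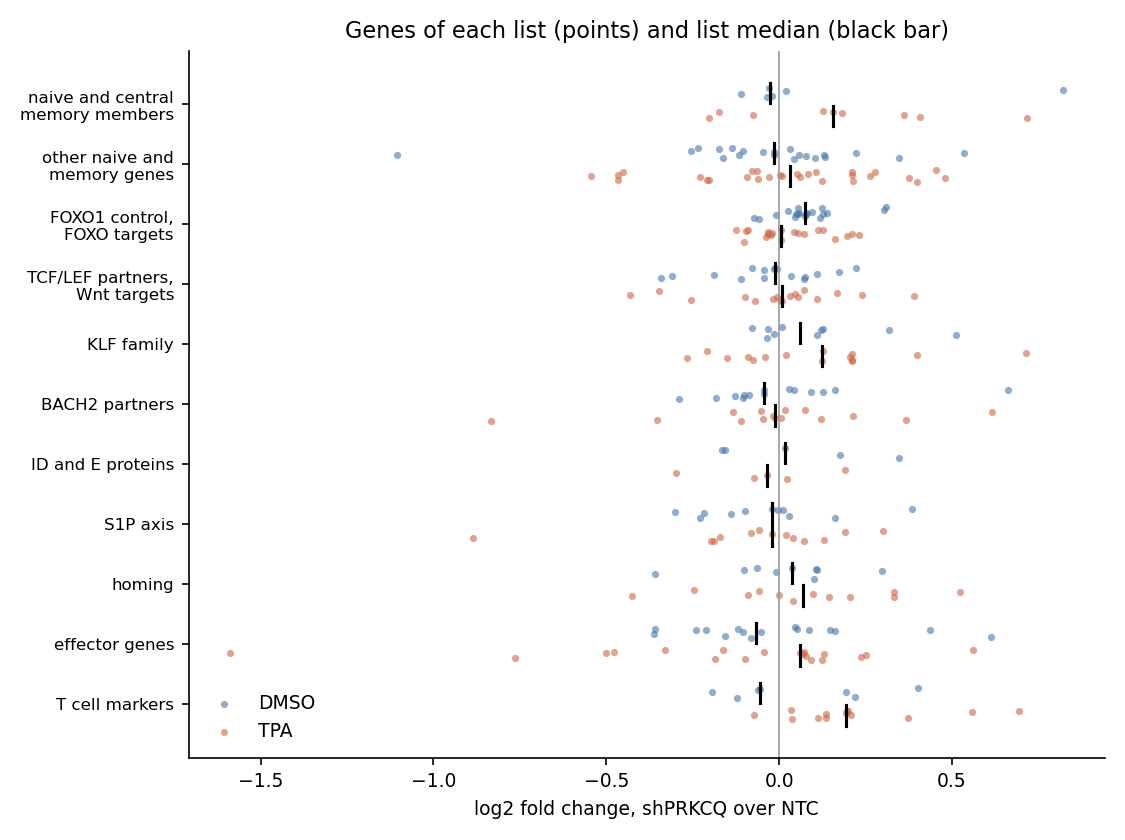
Log2 fold change of shPRKCQ over NTC (x axis) for each tested gene (points) of the members and 10 further lists (y axis) in DMSO (blue) and TPA (orange); black bars are list medians. The member medians are -0.025 in DMSO and 0.16 in TPA, and the points of most lists spread to both sides of 0.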

How the data were processed

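Per the labels' protocols, poly(A) RNA went into stranded libraries with molecular identifiers. Tools named without a role by the submitters' processing notes are DESeq2 1.18.1, RSEM 1.3.0 and STAR 2.5.3a, with the build GRCh38. Not given in the sources used here are the model formula, any shrinkage and whether counting used strand. For each gene and treatment the authors deposited a log2 fold change, the p-value behind it and that p-value after adjustment, per the file headers. These tables hold no value per library, so depth is unknown and the spread between libraries, replicates or lines, enters only through the authors' p-values.

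Rows were matched by exact symbol; all identifiers matched GENCODE release 29. Each p-value was turned into a z-value that takes the fold change's sign. The implied standard error is the fold change divided by z, and 95% intervals are normal. Treatments were compared by a two-sided normal test of the difference, taking the tables as independent, although cultures may be related, with Benjamini-Hochberg adjustment over all genes in both. The test was checked on simulated tables in which the implied standard errors were the true spread. The deposited tables gave fewer small p-values than that setting does, so the check does not cover calibration on them. The authors' adjusted p-values differed from a Benjamini-Hochberg adjustment by a relative 0.0045 at most.

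The members and gene lists were chosen with earlier results of these data known. Named were all members, PRKCQ and, per list, any gene with an adjusted p under 0.05 and the 2 genes with the smallest p in each treatment. For 1 gene this rule selects, the result is not reported here. Alternatives were other thresholds, other sets of genes for the adjustment, rescaled z-values and centred fold changes. Python 3.11.15, numpy 2.4.6, scipy 1.17.1, pandas 2.3.3 and matplotlib 3.10.9 were used.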

Additional observations from a re-analysis of the deposited data

How the results depend on the processing

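The count of members passing stayed at 0 in DMSO and in TPA at an adjusted p threshold of 0.1. A threshold of 0.01, or an added absolute log2 fold change of at least 1, could only keep that 0. In TPA the count was also 0 when p-values were adjusted over the 13007 genes of both tables or over all 34024 with a p-value. In DMSO both of these sets hold the same 13007 genes as the main adjustment, so they were no alternative there. With z divided by its robust SD over all genes, 109 genes passed in DMSO and 113 in TPA, again with 0 members (smallest member adjusted p = 0.583 and 0.606). The difference between treatments gave 0 members under every scale tried; with rescaled z 24 of all genes passed. Subtracting the median of all genes changed no member's sign. No paired analysis was possible because library values are not part of the tables used here; leaving out replicates, other normalizations and other tools were not run for the same reason. What depth limits could not be assessed.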

Other observations

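LEF1, FOXO1 and KLF3 share their loci with noncoding genes that are listed apart from them. BACH2 also overlaps such genes. Of these, RN7SKP110 and AL117342.1 were at 0.00054 in TPA per the authors' deposited table, the value that 2910 genes share, with no adjusted p. The antisense gene AL121787.1 had no fold change in either treatment. LEF1-AS1, on the opposite strand over 1432 bases of the LEF1 gene span, was at -0.15 in DMSO and 0.48 in TPA per the authors' deposited tables (unadjusted p = 0.616 and 0.0898), while LEF1 was at 0.021 and 0.13. The difference for LEF1-AS1 was 0.63, with an interval from -0.18 to 1.44 (unadjusted p = 0.129). LINC00598, on the same strand as FOXO1, was at -0.75 and 0.044 per the authors' deposited tables (unadjusted p = 0.0311 and 0.886), while FOXO1 was at -0.030 and -0.17. Its difference was 0.79, with an interval from -0.12 to 1.70 (unadjusted p = 0.0870). KLF3-AS1, opposite KLF3 over 688 bases, was at 0.60 in TPA per the authors' deposited table (unadjusted p = 0.115), with no adjusted p there and no row in DMSO; KLF3 was at 0.41. None passed over all genes where an adjusted p is given, and all were looked up after the member values were seen.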
